A study of Mus musculus with 2 samples.

Results

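TRAV6 is a subgroup of T cell receptor (TCR) alpha variable genes in the mouse. Its chains were taken from the assembled TCR alpha (TRA) contigs of thymic CD4 SP T cells, by a TRAV6 gene name with or without the D, N or DV letters that name copies. This gave 600 of 3782 TRA chains, from 592 cells. The study asked whether loss of BTLA, a co-inhibitory receptor of T cells, alters the TCR repertoire of these cells. One library (WT) came from mice of strain C57BL/6J labelled Wild Type, and 1 library (KO) from C57BL/6-Btla KO mice labelled Btla KO, here called Btla-/-. All mice were 8 to 12 weeks old, and thymocytes were enriched with a kit for naive CD4 T cells that removes other cells by negative selection. How many mice were behind a library is not given in the sources used here, so each genotype is 1 sample and no test between genotypes was possible. Only TCR transcripts were sequenced, so that neither the cell type nor the loss of Btla could be checked against marker genes.

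A TRA chain is made in developing thymocytes when a V segment is cut at its recombination signal and joined to a J segment, with bases trimmed and added at the joint. The joint encodes CDR3, the loop that mainly contacts the peptide, whereas the V segment alone encodes CDR1 and CDR2, which mainly contact the MHC molecule. Joining proceeds in rounds, in which V segments at the 3' end of the locus join J segments at the 5' end first and later rounds reach outward on both sides. The mouse TRAV locus carries large repeats, and the letters D and N name the copies of a gene in them.

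The GENCODE M21 annotation of GRCm38 holds 15 TRAV6 genes on the plus strand of chromosome 14, spread over 1071905 bases. Their order from 5' to 3' is TRAV6-1, TRAV6-2, then the D copies TRAV6D-3 to TRAV6D-7, the N copies TRAV6N-5 to TRAV6N-7, and last TRAV6-3 to TRAV6-7-DV9. The V exons of the genes that matter most below lie at chr14:52822062-52822359 for TRAV6D-6, chr14:53318993-53319284 for TRAV6N-7, chr14:53517069-53517366 for TRAV6-6 and chr14:53710128-53710419 for TRAV6-7-DV9. The name DV marks a gene that can also join the delta chain segments. Most copies that share a number differ by few bases, which decides how far a name can be trusted. TRAV6D-5 is further off, by 12 bases from TRAV6N-5 and 13 from TRAV6-5. The CDR1 of TRAV6-7-DV9 differs from that of TRAV6N-7 in 2 bases and that of TRAV6-5 in 7, in capitals here.
TRAV6N-7: gcctcagggtacccagct
TRAV6-7-DV9: gcctcagggtacccaAcC
TRAV6-5: AccAAaCAgtacccaAcC

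TRAV6D-6 and TRAV6N-6 carry a longer CDR1 of 24 bases against 18 in the sequences above, and the capital marks the single base in which TRAV6N-6 differs from TRAV6D-6.
TRAV6D-6: gccacaagcatagcttaccctaat
TRAV6N-6: gccacaagcatagGttaccctaat

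The CDR2 is the same in TRAV6N-7 and TRAV6-7-DV9. The capitals mark where 2 other much used genes differ from it, in 12 bases for TRAV6D-6 and 6 bases for TRAV6-5.
TRAV6N-7 CDR2: gcctcaagggacaaagagaaa
TRAV6D-6 CDR2: gTcATTaCggCTGGCCagaaG
TRAV6-5 CDR2: gTcCcaaAggCcaaCgagaaG

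Each TRAV6 gene supplies 14 germline bases to CDR3, from the codon of the conserved cysteine onward. There are 7 versions of this stretch among the 15 genes, shown with capitals for bases that differ from the most common one.
TRAV6N-7, TRAV6D-7, TRAV6D-6, TRAV6-6 and TRAV6N-5: tgtgctctgggtga
TRAV6-7-DV9 and TRAV6-5: tgtgctctgAgtga
TRAV6-1, TRAV6-2 and TRAV6D-5: tgtgTtctgggtga
TRAV6N-6: tgCgctctgAgtga
TRAV6-4 and TRAV6D-4: tgtgctctggTtga
TRAV6-3: tgtgctAtgAgAga
TRAV6D-3: tgtgctAtgAgtga

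The recombination signal follows this stretch directly. The signal of TRAV6D-5 is shown with that of TRAV6N-7 because its heptamer is CACGGTG, while the other 14 genes have CACAGTG. Capitals mark the heptamer and the nonamer, which lie 23 bases apart.
TRAV6N-7: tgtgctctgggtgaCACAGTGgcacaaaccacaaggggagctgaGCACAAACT
TRAV6D-5: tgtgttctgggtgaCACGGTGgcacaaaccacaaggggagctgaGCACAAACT

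Some copies cannot be told apart in these chains. From the start of framework 1 to the end of the V exon, TRAV6D-6 and TRAV6-6 are identical over 287 bases, and TRAV6D-7 and TRAV6N-7 over 281. Counts printed for TRAV6D-6 and TRAV6N-7 may thus hold chains of TRAV6-6 and TRAV6D-7. TRAV6-6 was named in 0 of 600 chains, which allows a share of up to 0.5% for that name, and TRAV6D-7 in 1 chain of the Btla-/- library. A pair of other copies each differ by a single base in the CDR3 stretch, T279A from TRAV6D-3 to TRAV6-3 and G277A from TRAV6N-5 to TRAV6-5, with positions counted from 1 at the first base of framework 1. The germline stretch of the named copy was matched up to and including this base in 24 of 38 chains of TRAV6-3 and TRAV6D-3. For TRAV6-5 and TRAV6N-5 it was 62 of 66 chains. None matched the other copy this far, but the names may rest on this base, so this is no check on them. The remaining 14 and 4 chains departed from both stretches at or before this base, which leaves the name of those chains uncertain. TRAV6N-7 and TRAV6-7-DV9 differ by 6 bases and TRAV6D-6 and TRAV6N-6 by 7, most of them outside CDR3, so these were kept apart.

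The V region of a chain matched the germline exon of its named gene in all but 4 of the 600 chains. Of these, 3 were off by 1 or 2 bases. The other, 1 Btla-/- chain named TRAV6N-5, with TRAJ22 and 2 UMIs, carried a V region found in the exons of TRAV12D-2 and TRAV12N-2. It was left among the TRAV6 chains, as its deposited name puts it there.

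No other TRAV subgroup supplied as many chains as TRAV6 in either library. It made up 300 of 1862 TRA chains in the WT library, 16.1% with an exact 95% binomial interval of 14.5 to 17.9%. In the Btla-/- library it made up 300 of 1920, 15.6% with an interval of 14.03 to 17.3%. The intervals overlap widely, and they cover counting error only, not differences between mice or library preparations. The subgroup also holds 14 of the 89 TRAV genes called over both libraries. The next largest subgroup with repeat copies, TRAV7, had 236 and 290 chains. Its interval of 11.2 to 14.3% in WT lies just below that of TRAV6. In Btla-/- its interval of 13.5 to 16.8% overlaps with that of TRAV6, so the order there is not settled. Counted by cells, 17.3% of WT and 16.5% of Btla-/- cells with a TRA chain held a TRAV6 chain. A TRA chain was found in only 1704 of 4040 WT and 1798 of 5077 Btla-/- cells, so the shares describe these cells alone.

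A few genes supplied most of the subgroup. TRAV6N-7 was named in 64 WT and 74 Btla-/- chains, 21.3% and 24.7% of TRAV6. TRAV6D-6 was named in 63 and 66 chains, 21.0% and 22.0%. TRAV6-7-DV9, the most 3' of the genes, was named in 53 and 41 chains, 17.7% with an interval of 13.5 to 22.5% and 13.7% with an interval of 9.99 to 18.1%. These genes were the most used in both libraries. Their intervals overlap with each other in the WT library. In the Btla-/- library TRAV6N-7, with an interval of 19.9 to 29.9%, lies apart from TRAV6-7-DV9, and TRAV6D-6 overlaps with both. After them came TRAV6-5 with 25 WT and 22 Btla-/- chains and TRAV6N-6 with 23 and 25.

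**Figure D1:**
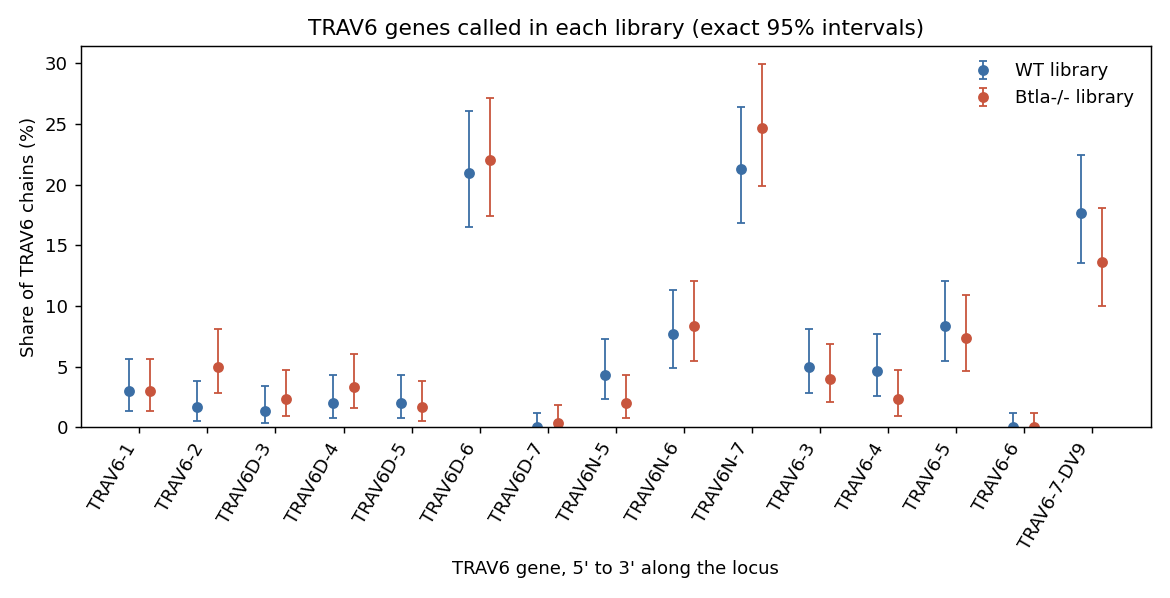
Share of TRAV6 chains (%) named for each of the 15 TRAV6 genes, in order along the locus, in the WT library (blue) and the Btla-/- library (red), with exact 95% binomial intervals over 300 chains each. TRAV6N-7, TRAV6D-6 and TRAV6-7-DV9 stand highest in both libraries, and the intervals of the libraries overlap for every gene.

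The other genes were rare. TRAV6-3 had 15 WT and 12 Btla-/- chains, TRAV6-4 14 and 7, TRAV6N-5 13 and 6, TRAV6-1 9 and 9, TRAV6D-4 6 and 10, TRAV6D-5 6 and 5, TRAV6-2 5 and 15, and TRAV6D-3 4 and 7. The most uneven of these, TRAV6-2, had intervals of 0.543 to 3.85% and 2.83 to 8.11% of TRAV6 chains, which overlap. Of the 5 TRAV6 genes that reached 1% of TRA chains in a library, 0 had intervals apart between the libraries. Over all TRAV genes at that level it was 1 of 48, or 2.08%.

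With copies of a number added together, which removes most of the doubt about names, TRAV6-7 with TRAV6D-7 and TRAV6N-7 made up 117 WT and 116 Btla-/- chains, and TRAV6D-6 with TRAV6N-6 86 and 91. TRAV6-5 with TRAV6D-5 and TRAV6N-5 followed with 44 and 33. By repeat, genes without a letter gave 121 and 106 chains, D copies 79 and 89, and N copies 100 and 105. No group had intervals apart between the libraries. The D count holds any chains of TRAV6-6, which has no letter, and the N count any of TRAV6D-7.

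TRAV6 chains used every TRAJ segment found in the data. All 43 segments occurred with TRAV6 in each library, and 178 combinations of a TRAV6 gene with a TRAJ segment were seen in each. The most frequent combination, TRAV6D-6 with TRAJ31, was seen in 12 of 600 chains, 5 WT and 7 Btla-/-. TRAV6-7-DV9 with TRAJ49 followed with 10, 7 and 3.

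TRAJ31 was the leading segment in both libraries, with 25 WT and 19 Btla-/- chains, 8.33% and 6.33% of TRAV6. The other leading segments of the WT library were TRAJ30 with 17 chains against 7 in the Btla-/- library, TRAJ22 with 16 against 16, TRAJ43 with 13 against 3, and TRAJ26 with 12 against 8. Those of the Btla-/- library were TRAJ23 with 17 chains against 7 in the WT library, TRAJ22, TRAJ12 with 16 against 9, and TRAJ2 with 16 against 4. For none of these segments did the intervals of the libraries lie apart, although overlap does not show that a difference is within counting error. This held for 43 of 43 segments between the libraries, and likewise between TRAV6 and other TRA chains within each library. Among other TRA chains, 2 of 43 segments, TRAJ2 and TRAJ4, had intervals apart between the libraries, or 4.65%. TRAJ2 made up 1.47% of WT and 4.75% of Btla-/- other TRA chains, in the same direction as in TRAV6.

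Segments TRAJ1 to TRAJ30 form the 3' part of the J cluster. TRAV6 chains used them in 154 of 300 WT chains, 51.3% with an interval of 45.5 to 57.1%, and in 178 of 300 Btla-/- chains, 59.3% with an interval of 53.5 to 64.9%. The share was higher by 8 percentage points in the Btla-/- library, and at this boundary the intervals overlap. With the boundary after TRAJ20 or after TRAJ40 they lie apart. After TRAJ20 the shares were 27.7% with an interval of 22.7 to 33.1% in WT and 39.3% with an interval of 33.8 to 45.1% in Btla-/- chains, and after TRAJ40 they were 71.3% with an interval of 65.9 to 76.4% and 83.3% with an interval of 78.6 to 87.4%. For TRAV6 chains, the call between the libraries thus depends on where the J cluster is divided.

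Other TRA chains were higher in the Btla-/- library as well. For TRAJ1 to TRAJ30 they stood at 48.1% with an interval of 45.6 to 50.7% in WT and 57.7% with an interval of 55.3 to 60.1% in Btla-/-. These intervals lie apart between the libraries, also with the boundary after TRAJ20 or TRAJ40, so the shift was not particular to TRAV6. After TRAJ30 they overlap with those of TRAV6 in each library. With the boundary after TRAJ40, Btla-/- TRAV6 chains lay above other TRA chains of that library, at 75.9% with an interval of 73.8 to 77.99%. These intervals did not overlap, whereas those of the WT library do. This was not particular to TRAV6 either. TRAV7, counted among the other TRA chains, stood at 83.8% in Btla-/- with an interval of 79.04 to 87.8%. The TRAV14 subgroup, also counted there, had an interval of 68.5 to 80.8%, which overlaps with that of other TRA chains.

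The average of TRAV6 hid a wide spread among its genes, also between near-identical V segments. TRAV6N-7 joined TRAJ1 to TRAJ30 in 47 of 64 WT chains, 73.4% with an interval of 60.9 to 83.7%, and in 54 of 74 Btla-/- chains, 73.0% with an interval of 61.4 to 82.6%. TRAV6-7-DV9 did so in 8 of 53 WT chains, 15.1% with an interval of 6.75 to 27.6%, and in 7 of 41 Btla-/- chains, 17.1% with an interval of 7.15 to 32.1%. The median segment number was 22 and 17.5 for TRAV6N-7 but 45 and 47 for TRAV6-7-DV9, where a high number is a 5' segment. The intervals of the pair lie far apart in both libraries and under each of 5 alternative selections of chains, although the genes differ by 6 bases of 281. They lie at different places, TRAV6-7-DV9 nearest to the J cluster of all TRAV6 genes.

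**Figure D2:**
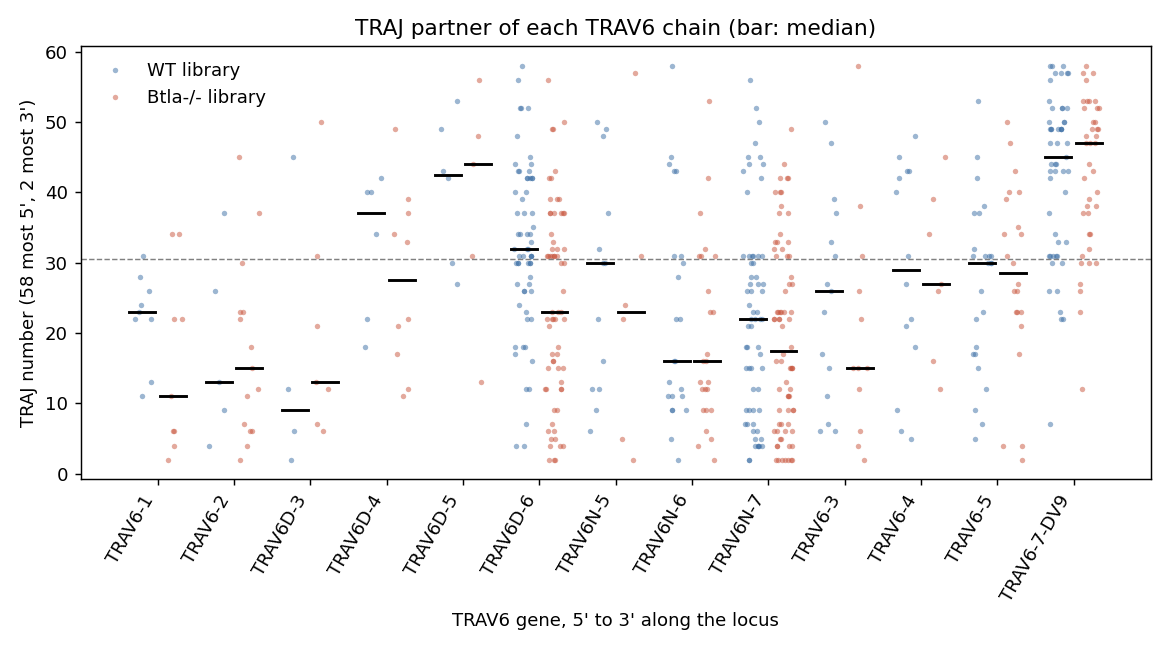
TRAJ segment number of every TRAV6 chain, with the TRAV6 genes in order along the locus, WT in blue and Btla-/- in red. Black bars are medians and the dashed line separates TRAJ1 to TRAJ30 from the 5' segments. The single TRAV6D-7 chain is not drawn. TRAV6-7-DV9 lies mostly above the line in both libraries, and TRAV6N-7 and TRAV6N-6 mostly below.

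Other TRAV genes showed the same order by position. Of other TRA chains whose V gene lies between TRAV6D-7 and TRAV6N-7, 70.7% in WT and 76.3% in Btla-/- used TRAJ1 to TRAJ30. Between TRAV6-6 and TRAV6-7-DV9 it was 25.7% with an interval of 21.8 to 29.9% and 32.7% with an interval of 28.1 to 37.5%. For V genes 3' of TRAV6-7-DV9 it was 2.89% and 4.58%. TRAV6N-7 and TRAV6-7-DV9 each overlapped in interval with the neighbouring genes on their 5' side. These position windows were chosen after the values of the TRAV6 genes were seen.

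The N copies mostly used the 3' part of the J cluster, and so did several TRAV6 genes outside them. TRAV6N-6 used TRAJ1 to TRAJ30 in 34 of 48 chains over both libraries, 70.8%, and the N copies as a group in 71.0% of WT and 72.4% of Btla-/- chains. TRAV6-1 and TRAV6-2, the most 5' genes, did so in 15 of 18 and 17 of 20 chains. TRAV6-5, further 3', did so in 26 of 47 chains, 55.3%. Counts of the rarer genes were 8 of 11 chains for TRAV6D-3, 7 of 16 for TRAV6D-4, 18 of 27 for TRAV6-3 and 11 of 21 for TRAV6-4. TRAV6D-5 had 3 of 11 chains and a median segment of 43, and was singled out after its values were seen. Its interval of 6.02 to 61.0% overlaps with that of the adjacent TRAV6D-4, 19.8 to 70.1%. The interval of TRAV6D-5 lies apart from that of TRAV6-2, 62.1 to 96.8%. It overlaps with those of TRAV6-1, 58.6 to 96.4%, and of TRAV6N-5, at 12 of 19 chains.

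TRAV6D-6 fell between these groups. It used TRAJ1 to TRAJ30 in 26 of 63 WT chains, 41.3% with an interval of 29.0 to 54.4%, and in 38 of 66 Btla-/- chains, 57.6% with an interval of 44.8 to 69.7%. Other V genes on the 5' side of TRAV6D-7, where TRAV6D-6 lies, stood at 64.0% with an interval of 56.9 to 70.6% in the WT library and 76.0% with an interval of 70.3 to 81.0% in the Btla-/- library. TRAV6D-6 was thus below its neighbours in both libraries. The intervals did not overlap in the WT library, also under 5 of 5 alternative selections of chains, whereas in the Btla-/- library they lay just apart and overlapped under all but 1 of 5. Its V exon equals that of TRAV6-6, and which of both genes a chain came from cannot be told apart here. TRAV6-6 lies between regions that differ. Other V genes stood at 65.8% in WT and 65.9% in Btla-/- on its 5' side, back to TRAV6N-7. On its 3' side, up to TRAV6-7-DV9, they stood at 25.7% and 32.7%. Whether chains of TRAV6-6 contribute to the TRAV6D-6 share was not tested.

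The CDR3 of TRAV6 chains began mostly as the germline stretch encodes. Cysteine-alanine-leucine opened 252 of 300 WT chains, 84.0%, and 243 of 300 Btla-/- chains, 81.0%. Among other TRA chains this start was found in 19.3% and 17.9%. Cysteine-valine-leucine, encoded by TRAV6-1, TRAV6-2 and TRAV6D-5, opened 19 and 28 chains, and cysteine-alanine-methionine, encoded by TRAV6-3 and TRAV6D-3, 19 and 17.

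The residue after this start varied with the gene. Glycine was at residue 4 in 48.5% of all TRAV6 chains against 7.01% of other TRA chains, and serine in 24.5% against 39.8%. TRAV6N-7 began with cysteine-alanine-leucine-glycine in 117 of 138 chains and TRAV6D-6 in 107 of 129. TRAV6-7-DV9, with the 1 base change in its stretch, began with cysteine-alanine-leucine-serine in 67 of 94. TRAV6D-3 and TRAV6-3, which differ in a single base, began with cysteine-alanine-methionine-serine in 8 of 11 and cysteine-alanine-methionine-arginine in 23 of 27. The genes of the subgroup thus differ in the first residues of CDR3 as well as in CDR1 and CDR2.

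Trimming at the V end was moderate. A TRAV6 chain kept a mean of 12.1 of the 14 germline bases in each library, with an SD over chains of 2.17 for WT and 2.13 for Btla-/-, and the whole stretch was kept in 40% and 39.7% of chains. A loss of 5 or more bases was seen in 10.0% of TRAV6 chains in each library, with an interval of 6.85 to 13.97%. Among other TRA chains it was 16.1% with an interval of 14.3 to 18.0% in WT and 17.7% with an interval of 15.8 to 19.6% in Btla-/-, apart from TRAV6 in both. The germline stretch of those other genes runs from 6 to 19 bases, so that the amount which can be lost differs, and an added base that matches the germline counts as kept. Bases that match neither segment averaged 3.16 and 3.09 per TRAV6 chain, with an SD of 2.26 and 2.29, and none was found in 13% and 11.3% of chains.

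CDR3 length was much the same in both libraries. The mean was 13.9 amino acids with an SD over chains of 1.47 in WT and 13.86 with an SD of 1.40 in Btla-/-, and the median was 14 in both. The range was 7 to 18 and 9 to 18. CDR3 of 15 or more amino acids made up 31.7% with an interval of 26.4 to 37.3% and 30% with an interval of 24.9 to 35.5%, against 28.3% and 29.0% of other TRA chains. Length 14 was the most frequent, in 106 WT and 95 Btla-/- chains. In the WT library it made up 35.3% of TRAV6 chains with an interval of 29.9 to 41.0%, at the edge of the interval of other TRA chains, 25.5 to 29.9%.

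**Figure D3:**
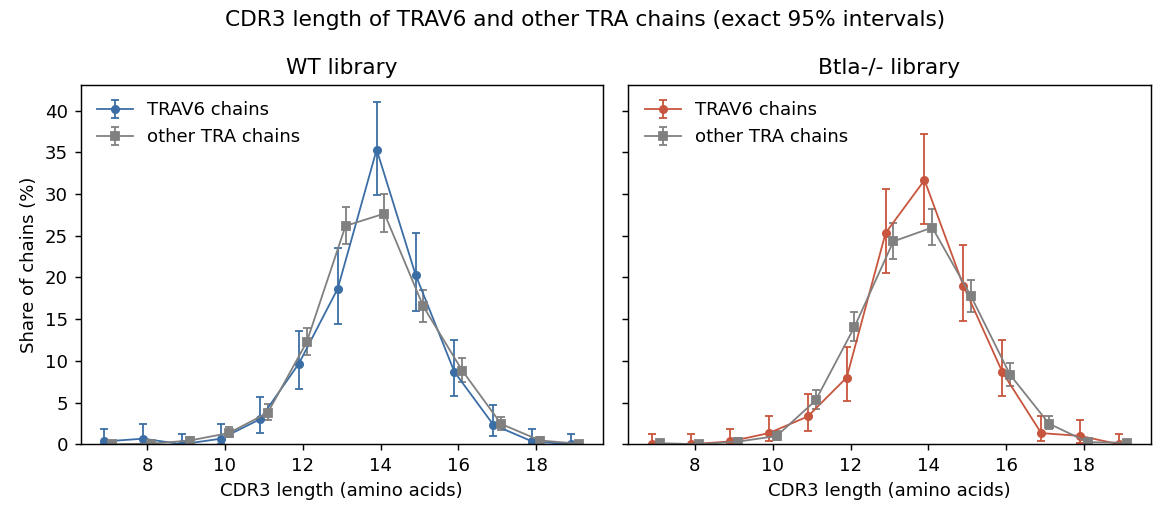
Share of chains (%) by CDR3 length in amino acids, for TRAV6 chains (coloured circles) and other TRA chains (grey squares) in the WT library (left) and the Btla-/- library (right), with exact 95% binomial intervals. All curves peak at 14 amino acids, and the TRAV6 peak is 35.3% in WT and 31.7% in Btla-/-.

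Among genes with 20 or more chains in each library, TRAV6D-6 had a mean CDR3 of 14.32 amino acids with an SD of 1.37 in WT and 14.05 with an SD of 1.29 in Btla-/- chains, and TRAV6N-7 14.03 and 14.09. TRAV6N-6, from the same number group, had 13.70 with an SD of 1.06 and 12.96 with an SD of 1.59. TRAV6D-6 was higher than TRAV6N-6 in both libraries, and this difference was not tested, since chains of a library are not replicates.

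TRAV6 cells paired with a wide range of TCR beta (TRB) chains. A TRB chain was recovered in 287 of 295 WT and 284 of 297 Btla-/- TRAV6 cells, which held 317 and 314 TRB chains. TRBV13 led in both libraries, with 74 chains or 23.3% (interval 18.8 to 28.4%) in WT and 57 chains or 18.2% (interval 14.05 to 22.9%) in Btla-/-. This count takes in a joint name of TRBV12-2 with TRBV13-2 that the deposited annotation uses, which made up 27 and 20 of these chains. Without it TRBV13 had 47 and 37 chains, against 42 and 29 for TRBV12. The order of TRBV13 and TRBV12 thus depends on where the joint name is counted.

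The other leading TRBV subgroups of the WT library were TRBV12 with 42 chains against 29 in the Btla-/- library, TRBV19 with 33 against 16, TRBV5 with 23 against 20, and TRBV16 with 19 against 24. In the Btla-/- library TRBV12 was followed by TRBV3 with 26 chains against 12 in the WT library, TRBV16, and TRBV2 with 23 against 12. For TRBV19 the intervals were 7.27 to 14.3% and 2.94 to 8.14%, and for TRBV3 they were 1.97 to 6.52% and 5.48 to 11.9%, overlapping in both cases. Of 18 TRBV subgroups, 0 had intervals apart between the libraries in TRAV6 cells, and 0 between TRAV6 cells and cells with other TRA chains in either library. The background in cells with other TRA chains alone was 0 of 18 as well, or 0%.

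**Figure D4:**
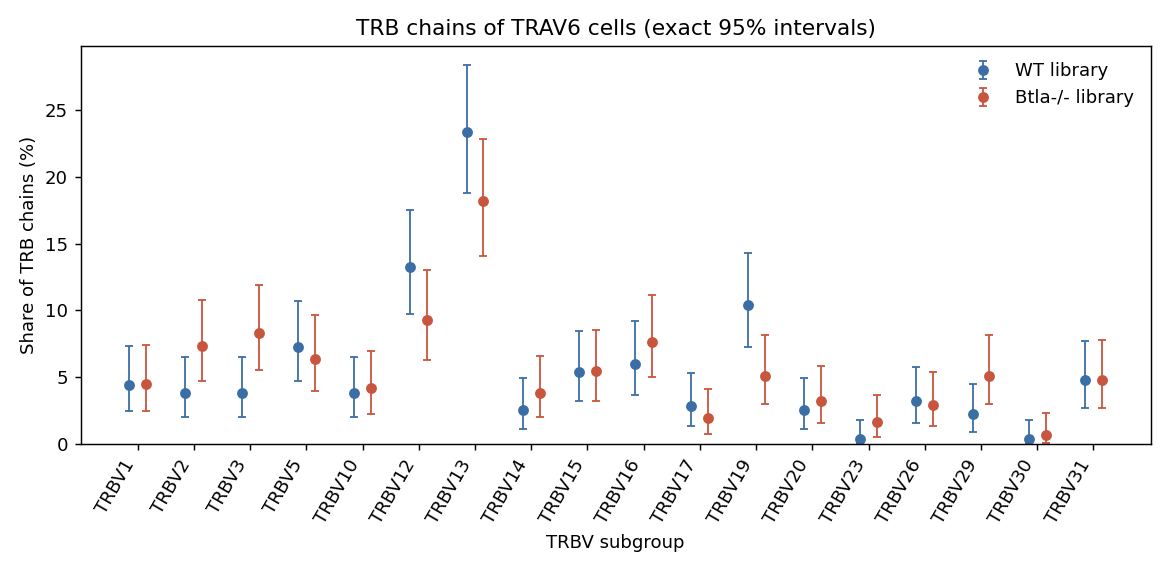
Share (%) of the 317 WT (blue) and 314 Btla-/- (red) TRB chains of TRAV6 cells that belong to each TRBV subgroup, with exact 95% binomial intervals. TRBV13, with 23.3% and 18.2% and the joint name counted in it, stands highest, and the intervals of the libraries overlap for all 18 subgroups.

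TRAV6 chains rested on few molecules. A unique molecular identifier (UMI) marks each captured transcript, and the 300 TRAV6 contigs of the WT library held 1204 UMIs in all, with a median of 3 and a range of 1 to 24. Those of the Btla-/- library held 893, with a median of 2 and a range of 1 to 11. At least 3 UMIs were found in 68.3% of WT TRAV6 contigs with an interval of 62.7 to 73.6%, and in 48.3% of Btla-/- ones with an interval of 42.6 to 54.1%, so the libraries differed beyond counting error. Other TRA contigs differed likewise, at 68.8% and 55.7%.

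Support differed by gene. Among TRAV6D-6 contigs 32 of 63 in the WT library had at least 3 UMIs, 50.8% with an interval of 37.9 to 63.6%, below the 73.0% of all other TRAV6 contigs with an interval of 66.9 to 78.5%. In the Btla-/- library it was 24 of 66, 36.4% with an interval of 24.9 to 49.1%, against 51.7% with an interval of 45.1 to 58.3%, and these intervals overlap. TRAV6D-6 was singled out after its values were seen. With contigs of at least 3 UMIs alone, TRAV6D-6 made up 15.6% of WT and 16.6% of Btla-/- TRAV6 chains, in place of 21.0% and 22.0%.

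**Figure D5:**
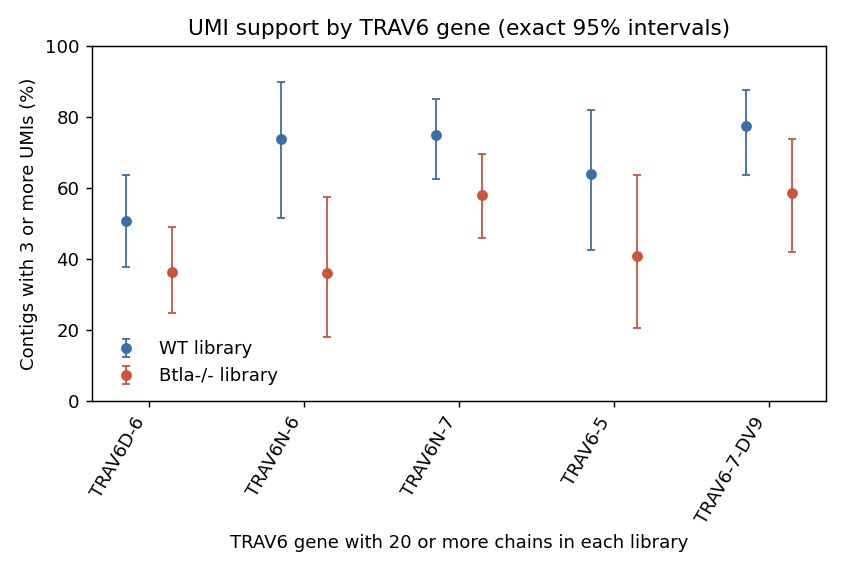
Share of contigs (%) with 3 or more UMIs for the 5 TRAV6 genes with 20 or more chains in each library, WT in blue and Btla-/- in red, with exact 95% binomial intervals. Each gene is lower in the Btla-/- library, and TRAV6D-6 is at 50.8% in the WT library, where TRAV6-7-DV9 is at 77.4%.

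Some cells held more than 1 chain of a kind, and barcodes that may stand for a pair of cells were not removed. Of TRAV6 cells, 51 in WT and 39 in Btla-/- had 2 or more, and 5 and 3 cells held 2 TRAV6 chains. Of TRAV6 cells, 30 in each library had 2 or more TRB chains, 10.2% in WT and 10.1% in Btla-/-, against 7.24% and 9.13% of cells with other TRA chains alone. In 3 of the 5 WT cells with a pair of TRAV6 chains and in 1 of the 3 Btla-/- cells both chains were named for the same gene, with different TRAJ segments. A cell with more chains has more chances to hold TRAV6, and per chain the share was 15.8% and 15.4% in cells with 1 TRA chain and 17.7% and 17.2% in cells with 2 or more. The libraries shared 30 cell barcodes, which 0 WT and 4 Btla-/- TRAV6 cells carried.

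TRAV6 chains were rarely repeated. A chain with the same V gene, J segment and CDR3 bases was found in 2 cells of a library 5 times in WT and 9 times in Btla-/-, and never in more. The cells shared a TRB CDR3 in 1 of the 5 and 6 of the 9.

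Between the libraries, 1 TRAV6 chain was found with the same V gene, J segment and CDR3 bases. It joins TRAV6N-7 to TRAJ22 and was seen in 1 cell of each library, with TRBV15 in the WT and TRBV1 in the Btla-/- cell. Its capitals mark the 4 bases that match neither segment.
TRAV6N-7 with TRAJ22: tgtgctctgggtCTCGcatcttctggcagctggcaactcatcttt

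As amino acids, 8 CDR3 sequences were found in both libraries, 2.75% of 291 distinct WT and 2.82% of 284 distinct Btla-/- sequences. Among other TRA chains it was 71, or 4.77% of 1487 and 4.74% of 1499 distinct sequences. A larger set gives each sequence more chances of a match, so these shares cannot be compared between TRAV6 and other TRA chains. In 6 of the 8 the libraries used different V genes. In 1 of those the bases were the same as well, with no added base, from TRAV6-7-DV9 in WT and TRAV6D-6 in Btla-/-.
TRAV6-7-DV9 or TRAV6D-6 with TRAJ30: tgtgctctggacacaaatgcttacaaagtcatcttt

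Another was encoded by 3 different sequences, each with the whole V stretch and 5 further bases, in capitals, before TRAJ31.
TRAV6N-7, WT: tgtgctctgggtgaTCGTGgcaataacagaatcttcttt
TRAV6D-6, Btla-/-: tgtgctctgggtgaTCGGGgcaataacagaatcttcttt
TRAV6N-5, Btla-/-: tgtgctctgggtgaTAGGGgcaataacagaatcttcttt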

How the data were processed

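TCR contigs of 1 WT and 1 Btla-/- library were used. The authors assembled and annotated the reads by Cell Ranger 7.2.0, against the prebuilt mouse V(D)J reference for GRCm38, per the labels and the methods, and deposited raw counts of UMIs and reads for each contig, without normalization. The deposited tables of V gene percentages, clone proportions and CDR3 lengths were not used. The libraries held 6003 and 7101 contigs in 4040 and 5077 cells. Reads counted for these contigs came to 26700294 and 22026825, which leaves out any other reads of the libraries. TRA chains had a median of 3 UMIs in each.

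Every TRA contig with a TRAV6 name was counted. Doublets were not called or removed, and the selection of cells with exactly 1 TRA and 1 TRB chain leaves out barcodes with more. Shares carry exact Clopper-Pearson 95% intervals, and values were described as apart where the intervals did not overlap. A share of 300 chains near 50% thus has an interval of about 6 percentage points on either side, as for TRAJ1 to TRAJ30. Gene positions and germline sequence came from GENCODE M21 and GRCm38.p6, and CDR3 bases were matched to the germline V from the 5' and J from the 3' end. The named genes were every TRAV6 gene, the 5 most used TRAJ segments and TRBV subgroups of each library, and those with intervals apart. The members, lists and comparisons were chosen with earlier results of these data known. Simulated data were used only to check the intervals of V gene shares and the matching of CDR3 bases to germline. The added bases there were set to differ from germline at both ends. Joints with matching or no added bases, and the other steps, were thus not tested in this way. Alternatives were contigs with at least 3 UMIs, 1 TRA chain per cell, cells with exactly 1 TRA and 1 TRB chain, distinct chains, shared barcodes left out, other TRAJ boundaries, cells as denominator, copies added together and the joint TRBV name kept apart. Python 3.11.15, numpy 2.4.6, pandas 2.3.3, scipy 1.17.1 and matplotlib 3.10.9 were used.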

Additional observations from a re-analysis of the deposited data

How the results depend on the processing

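No paired analysis was possible because each genotype has 1 library and no test was made. Of 186 values recomputed under alternatives, 167 stayed within the exact interval or SD of the reported value and 19 moved out of it, most of them by construction, as where copies were added together. Mean and median CDR3 length were judged by the SD over chains, which an average can hardly leave. Several alternatives also kept nearly all chains, so the count of values that stayed is no measure of robustness. With at least 3 UMIs, the TRAV6 share of Btla-/- TRA chains was 13.8%. With the boundary after TRAJ20, the share of 3' segments was 27.7% in WT and 39.3% in Btla-/-, and after TRAJ40 it was 71.3% and 83.3%. At both boundaries the intervals of the libraries lie apart, unlike after TRAJ30. For other TRA chains they lie apart at each of these boundaries, TRAJ30 among them. With the joint name kept apart, TRBV13 was 14.8% and 11.8%. The higher Btla-/- share of TRAJ1 to TRAJ30 kept its direction in 7 of 7 alternatives, with differences of 5.62 to 12 percentage points. CDR3 of 15 or more amino acids, lower by 1.67 points in the Btla-/- library, was higher by 3.47 points with at least 3 UMIs, and the share of the cysteine-alanine-leucine start, lower by 3 points, was higher by 0.606 points. The differences between the libraries in the shares of TRAV6D-6, TRAV6N-6 and TRAV6N-7 each turned direction under 1 of 6 alternatives. The cause was not tested. Depth of 300 chains per library, and 53 or 41 for TRAV6-7-DV9, limits every comparison between the libraries. Genes below 20 chains were described mainly by counts, and the intervals given for some of them are wide.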
